A study of Mus musculus with 32 samples.

Results

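The transcriptome of the mouse kidney after a single injection of cisplatin was compared with that of control kidney by RNA-seq. The libraries were chosen by their labels as kidney RNA-seq with or without cisplatin, which gave 4 of the 32 samples of the study, 2 from cisplatin-treated and 2 from control animals, and all genes of these libraries were described. The animals were wild-type C57BL/6J females aged 6 or 7 months. The cisplatin group received 10 mg per kg of body weight by intraperitoneal injection, and the control group received the same volume of 154 mM saline by that route. Injection was at ZT1 and tissue was taken at ZT5, where ZT counts hours from lights on, so that 4 h lay between them, whereas the labels give 2 h after treatment for every library. Other samples of the study were RNA-seq of liver, lung and spleen, and XR-seq and Damage-seq of the 4 organs. The study calls its replicates biological, but no label says which animal a library came from.

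Cisplatin reacts with neighbouring purines in DNA, mostly guanines, and the adducts block RNA polymerase II when they lie on the strand that is read. Stalled polymerases and adducts activate the DNA damage response, in which the transcription factor p53 raises its target genes, and stress kinases raise genes of the AP-1 family of transcription factors. The kidney takes up the drug through transporters of the proximal tubule, the segment that reabsorbs most of the filtrate, and injury of this segment limits the use of cisplatin in patients.

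The 4 kidney libraries held between 15619474 and 55043177 reads on genes, with replicate 1 of each group the shallower. Levels are given as CPM, read counts scaled to the same library total with trimmed mean normalization, and are relative to the rest of the polyadenylated RNA of the same library. Levels of different genes were not compared, since CPM does not correct for transcript length. In bulk tissue, fewer cells of a type and less RNA per cell cannot be told apart. Replicates differed by more than the sampling of reads, with a chi-square per degree of freedom of 83.7 between the control libraries and 39.3 between the cisplatin libraries, so that each library was kept as a replicate.

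Cisplatin changed the level of many kidney genes in either direction. Of 15471 genes with enough reads to be tested, 372 rose and 410 fell (edgeR quasi-likelihood fit with 0.4 as the log2 fold change to exceed, Benjamini-Hochberg adjusted p under 0.05), which is 2.4% and 2.65% of the genes tested and 5.05% together. Of the 782 genes, 776 were protein coding. All 782 changed in the same direction in both replicate pairs (cisplatin replicate 1 against control replicate 1, and 2 against 2), as did 12043 of all genes tested. None of the 782 had overlapping groups, against 56.8% of all genes tested without overlap. The 782 were called from these same libraries, so both counts follow largely from that choice and are no further support. Rises were the larger in size, since 128 of the genes that rose and 84 of those that fell changed at least 4-fold. The median log2 fold change of the genes that rose was 1.67, with 1.70 in pair 1 and 1.58 in pair 2, and that of the genes that fell was -1.56, with -1.501 in pair 1 and -1.56 in pair 2. The median over all genes tested was -0.00045 in pair 1 and 0.0164 in pair 2.

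The number of calls depended on each library. Without cisplatin replicate 1, 123 genes passed the test (95 up and 28 down). Without cisplatin replicate 2, 474 passed (279 up and 195 down). Without control replicate 1 there were 2005 calls (914 up and 1091 down), and without control replicate 2 there were 1400 (686 up and 714 down). In these fits the group left with 1 library was assumed to vary like the other group, and no gene of the 782 was called in the opposite direction in any of them. Since the groups of all 782 did not overlap, an opposite call could hardly arise, and its absence is no further support.

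**Figure D1:**
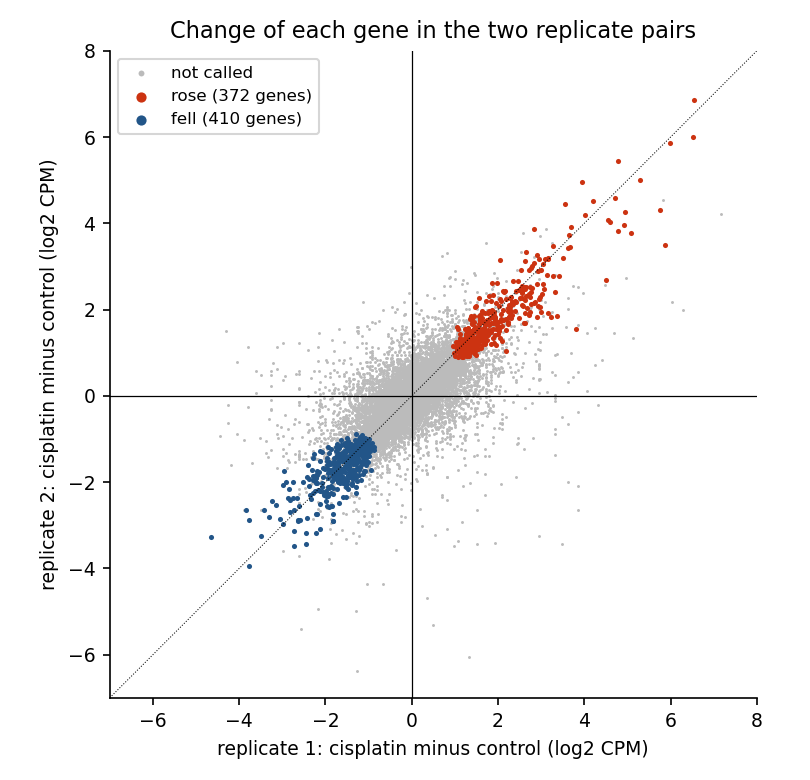
Change of each tested gene in replicate pair 1 (horizontal axis, log2 CPM of cisplatin minus control) and in pair 2 (vertical axis, same unit), with the 372 genes that rose in red, the 410 that fell in blue and all other tested genes in grey. The called genes lie at the upper right and lower left along the dotted line of equal change.

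Among genes with a mean of at least 5 CPM in the higher group, the largest rise was that of Plk3 (ENSMUSG00000028680; GRCm38, chr4:117128655-117133963, minus strand), a polo-like kinase of the stress and DNA damage response. Its level was 4.58 and 3.69 CPM in control and 430.1 and 433 CPM in cisplatin kidney. The cisplatin libraries were close to each other and far above both controls, with a log2 fold change of 6.72 ± 0.22 (SE) (adjusted p = 0.00097), or 105-fold, and 6.54 in pair 1 and 6.85 in pair 2. Its exons overlap those of Tctex1d4 on the opposite strand, and the library kit is not stated to keep strand, so reads there could come from either gene. Atf3 (ENSMUSG00000026628; chr1:191170296-191218039, minus strand), a stress-induced transcription factor that pairs with AP-1 proteins, was at 1.90 and 3.33 CPM in control and 179 and 216 CPM in cisplatin kidney. It rose by 6.18 ± 0.33 (adjusted p = 0.00229), with 6.51 in pair 1 and 5.99 in pair 2. Fosl1, which encodes the AP-1 subunit Fra-1, was at 0.438 and 0.519 CPM in control and 31.5 and 33.6 CPM in cisplatin kidney, and rose by 6.05 ± 0.27 (adjusted p = 0.0014).

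Several of the other large rises were of secreted or membrane proteins of the stress response. Gdf15, a secreted hormone of the stressed cell that curbs appetite, went from 7.21 and 6.21 to 201 and 275 CPM (log2 fold change 5.15 ± 0.25, adjusted p = 0.00193). Tnfrsf12a, the receptor of the cytokine TWEAK, went from 12.7 and 16.1 to 498 and 519.9 CPM (log2 fold change 5.14 ± 0.22, adjusted p = 0.0014). Hbegf, a ligand of the EGF receptor, went from 15.2 and 14.2 to 282 and 329.6 CPM (log2 fold change 4.38 ± 0.19, adjusted p = 0.0014). In each of these genes the cisplatin libraries lay far above the controls and near each other. Cdkn1a, which encodes the cell cycle inhibitor p21, went from 14.2 and 30.7 to 431 and 477 CPM (log2 fold change 4.33 ± 0.39, adjusted p = 0.00718), and its control libraries differed more in proportion than its cisplatin libraries. Pmaip1, which encodes the pro-death BCL2 family protein Noxa, went from 25.7 and 8.97 to 399.5 and 280.1 CPM (log2 fold change 4.31 ± 0.53, adjusted p = 0.016). Here too the spread was mostly between the controls, and the pairs changed by 3.96 and 4.96.

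The remainder of the 15 largest rises held the transcription factors Maff (log2 fold change 4.55 ± 0.29, adjusted p = 0.0033) and Egr1 (log2 fold change 4.13 ± 0.47, adjusted p = 0.0137), the phosphatase of stress kinases Dusp8 (log2 fold change 4.29 ± 0.23, adjusted p = 0.00231), the RNA-stabilising protein gene Arid5a (log2 fold change 4.13 ± 0.32, adjusted p = 0.00419), the receptor gene Gpr3 (log2 fold change 4.22 ± 0.44, adjusted p = 0.0107), the neuronal pentraxin Nptx2 (log2 fold change 4.88 ± 0.39, adjusted p = 0.00482) and the keratin Krt20 (log2 fold change 4.63 ± 0.66, adjusted p = 0.0208). Nptx2 and Gpr3 were near 0 in control kidney, at 0.195 and 0.259 CPM and 0.487 and 0.259 CPM, and reached 6.52 and 7.51 CPM and 6.33 and 6.78 CPM with cisplatin. Krt20 had the largest standard error of the 15, and was at 0.292 and 1.54 CPM in control and 18.7 and 31.6 CPM in cisplatin kidney. All 15 genes passed the test under each of the other settings that kept all 4 libraries. Those settings refit the same counts from which the 15 were picked, so this is no further support. Over all 11 other settings, including the removal of any 1 library, the log2 fold change of Plk3 was 6.56 to 6.85. That of Krt20 was 4.02 to 6.42.

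**Figure D2:**
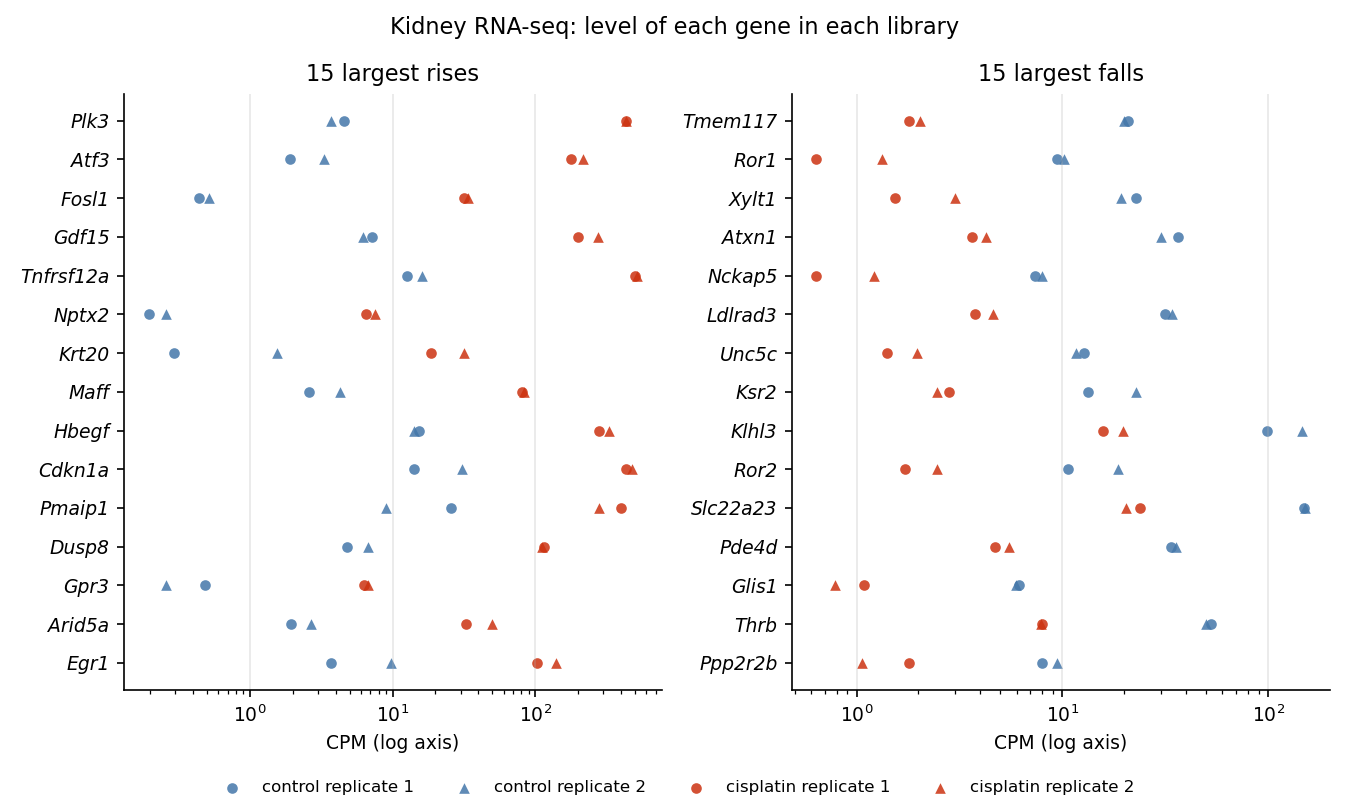
Level of the 15 genes with the largest rise (left) and the 15 with the largest fall (right), among genes of at least 5 CPM in the higher group, in each kidney library, in CPM on a log axis; circles are replicate 1, triangles replicate 2, blue control and red cisplatin. In each of the 30 genes the 2 cisplatin libraries lie on one side of the 2 control libraries, for example 430.1 and 433 CPM against 4.58 and 3.69 CPM for Plk3.

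The stretch before the start of the genes that rose was searched for short motifs of stress-responsive transcription factors, among them the cyclic AMP response element (CRE), the site of CREB, ATF and some AP-1 dimers. The windows were the 250 bases before the start of a gene in RefSeq on GRCm38.p6, on the strand of the gene, and both strands were searched. A gene with more than 1 window was counted if any of them held the motif. Of 301 genes that rose and have a window, 21 (6.98%) held TGACGTCA, the full CRE, against 9 of 308 genes that fell (2.92%), 337 of 11758 tested genes (2.87%) and 478 of all 27025 genes with a window (1.77%). The form TGACGTNA, which includes the full CRE and was added after the sequences had been read, was in 30 of 301 genes that rose (9.97%), 13 of 308 that fell (4.22%), 530 of 11758 tested (4.51%) and 789 of 27025 in all (2.92%). Other motifs had shares nearer to those of tested genes: the AP-1 site TGANTCA was in 6.64% of genes that rose and 6.04% of those tested, the E-box CACGTG in 12.6% and 9.47%, the CCAAT enhancer and ATF element TGATGNAA in 1.99% and 2.48%, the CArG box in 1.66% and 1.39%, and the decamer of the p53 site in 5.65% and 7.37%. A match is a run of letters and was not shown to be a bound site.

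Of the 15 largest rises, 10 have a window, and 4 of these hold TGACGTNA. Those 4 windows are printed to show where the match lies, and were thus picked for holding it. The windows of Gdf15, Tnfrsf12a, Krt20, Cdkn1a, Gpr3 and Arid5a do not hold it. Each printed window runs 5′ to 3′ on the gene's strand and ends at the base before the gene's start in RefSeq, and capitals mark each match. For Atf3, Maff and Dusp8 this start lies inside the GENCODE gene model, the source of gene positions here, and so do their windows. Maff has 3 windows, and the first that holds the match is printed. The windows lie at chr4:117133964-117134213 (minus strand) for Plk3, chr1:191183334-191183583 (minus strand) for Atf3, chr15:79347270-79347519 (plus strand) for Maff and chr7:142095285-142095534 (minus strand) for Dusp8. Between the match and the gene's start lie 124 bases in Plk3, 2 in Atf3 and 21 in Maff, and 99 and 55 bases for the 2 matches in Dusp8.
Plk3: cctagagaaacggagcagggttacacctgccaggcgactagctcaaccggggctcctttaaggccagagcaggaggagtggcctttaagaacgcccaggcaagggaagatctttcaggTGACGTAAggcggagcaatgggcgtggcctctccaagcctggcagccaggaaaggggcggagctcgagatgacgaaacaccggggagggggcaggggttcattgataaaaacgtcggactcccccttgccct
Atf3: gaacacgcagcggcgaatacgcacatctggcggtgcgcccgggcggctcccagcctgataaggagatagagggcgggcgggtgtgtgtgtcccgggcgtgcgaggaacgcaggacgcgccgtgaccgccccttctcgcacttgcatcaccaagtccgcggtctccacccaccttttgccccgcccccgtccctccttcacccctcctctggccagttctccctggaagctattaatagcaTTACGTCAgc
Maff: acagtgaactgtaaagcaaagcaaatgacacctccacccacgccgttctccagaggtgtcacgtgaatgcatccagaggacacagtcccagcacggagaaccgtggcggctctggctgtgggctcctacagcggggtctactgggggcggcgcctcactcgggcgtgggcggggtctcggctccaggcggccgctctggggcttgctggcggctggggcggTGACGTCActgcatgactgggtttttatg
Dusp8: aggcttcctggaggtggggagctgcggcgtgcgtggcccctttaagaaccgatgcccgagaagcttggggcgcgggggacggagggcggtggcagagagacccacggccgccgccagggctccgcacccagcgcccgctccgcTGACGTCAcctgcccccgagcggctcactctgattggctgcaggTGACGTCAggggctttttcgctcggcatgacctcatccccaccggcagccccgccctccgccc
Plk3 and Atf3 each hold 1 match that departs from the full element at the free position, Maff holds 1 full element and Dusp8 holds 2.

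Genes known to respond to a stimulus early and without new protein synthesis were frequent among the rises. Of 19 AP-1 genes tested, 10 rose (52.6%, against 2.4% of all genes tested) and none fell. Their median log2 fold change was 1.56 against -0.00297 over all genes tested. Fos went from 1.46 and 1.59 to 18.7 and 17.6 CPM (log2 fold change 3.56 ± 0.25, adjusted p = 0.00349), Jun from 27.7 and 41.03 to 295 and 281 CPM (log2 fold change 3.06 ± 0.24, adjusted p = 0.00432) and Fosb from 0.487 and 0.333 to 3.83 and 5.61 CPM (log2 fold change 3.57 ± 0.45, adjusted p = 0.0162). Fos, Fosb, Fosl1, Jun and Junb encode subunits of the AP-1 dimer, and each of them was higher in both cisplatin libraries than in either control. Junb changed by 2.52 ± 0.19 (adjusted p = 0.00419). Of 19 further immediate-early genes tested, 12 rose (63.2%), with a median of 2.28 and all 19 above 0. They included Myc, the growth-promoting transcription factor, at 6.48 and 6.32 CPM in control and 54.3 and 53.3 CPM in cisplatin kidney (log2 fold change 3.07 ± 0.19, adjusted p = 0.0032), and the zinc finger gene Egr2 (log2 fold change 3.15 ± 0.46, adjusted p = 0.0218). Nr4a1, an orphan nuclear receptor, changed by 2.99 ± 0.31 (adjusted p = 0.011), and Zfp36, whose protein destabilises cytokine mRNA, by 2.59 ± 0.19 (adjusted p = 0.00387). Ier2 went from 11.3 and 11.9 to 65.8 and 66.9 CPM (log2 fold change 2.52 ± 0.17, adjusted p = 0.00349). Once cisplatin replicate 1 was left out, 9 of the 10 AP-1 genes and 8 of the 12 immediate-early genes passed the test, and Egr2 did not (adjusted p = 0.0949). Without cisplatin replicate 2, 10 and 10 passed.

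Feedback inhibitors of the kinases that act upstream of AP-1 rose as well. Of 11 MAPK phosphatases, 6 rose (54.5%, against 2.4% of all genes tested) and none fell (median log2 fold change 1.73). Dusp1, which removes phosphate from p38 and JNK, went from 25.3 and 25.1 to 126 and 122 CPM (log2 fold change 2.30 ± 0.16, adjusted p = 0.00349), with 2.31 and 2.29 in the pairs. Dusp5 went from 1.71 and 1.59 to 22.7 and 24.7 CPM (log2 fold change 3.85 ± 0.24, adjusted p = 0.00333), and Dusp4 from 7.41 and 10.4 to 49.1 and 53.8 CPM (log2 fold change 2.52 ± 0.23, adjusted p = 0.00813). These nuclear phosphatases act mainly on ERK, as does the cytoplasmic Dusp6, which went from 67.2 and 57.6 to 140.1 and 133 CPM (log2 fold change 1.13 ± 0.17, adjusted p = 0.0345). Dusp6 did not pass the test without cisplatin replicate 1 (adjusted p = 0.255) or without cisplatin replicate 2 (adjusted p = 0.109). Dusp14 changed by 1.98 ± 0.21 (adjusted p = 0.0137).

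Part of the p53 target list rose. Of 39 p53 target genes tested, 13 rose (33.3%, against 2.4% of all genes tested) and none fell. Of the 39, 29 had a log2 fold change above 0, against 7697 of all 15471 genes tested, and the median was 0.41. Besides Plk3, Gdf15, Cdkn1a and Pmaip1, Mdm2, which encodes the ligase that degrades p53, went from 62.6 and 40.7 to 217 and 159 CPM (log2 fold change 1.87 ± 0.27, adjusted p = 0.0246). Plk2, a second polo-like kinase, went from 14.4 and 11.6 to 97.5 and 90.6 CPM (log2 fold change 2.86 ± 0.20, adjusted p = 0.00349), and Epha2, an ephrin receptor, from 8.38 and 9.41 to 96.2 and 86.8 CPM (log2 fold change 3.36 ± 0.19, adjusted p = 0.00243). Other classical targets did not pass the test: Ccng1 was at 366 and 278 CPM in control and 521 and 463 CPM in cisplatin kidney (log2 fold change 0.61 ± 0.20, adjusted p = 0.32), the pro-death gene Bax had a log2 fold change of 0.41 ± 0.25 (adjusted p = 0.704), and Bbc3, which encodes Puma, one of 0.78 ± 0.33 (adjusted p = 0.384). Ddb2 and Xpc, which encode damage sensors of nucleotide excision repair, were at 4.63 and 2.43 CPM in control and 4.41 and 2.51 CPM in cisplatin kidney and at 56.1 and 64.9 CPM in control and 52.5 and 59.4 CPM in cisplatin kidney, respectively. In both genes the groups overlapped. A fit that left out cisplatin replicate 1 called 8 of the 13, and Mdm2 was among those lost (adjusted p = 0.113), whereas without cisplatin replicate 2, 10 passed.

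All 3 genes of the Gadd45 family, small proteins that activate stress kinases and take part in growth arrest, rose. Gadd45a, itself a p53 target, went from 29.6 and 25.4 to 222 and 245 CPM (log2 fold change 3.09 ± 0.18, adjusted p = 0.00301), Gadd45b from 3.41 and 4.67 to 21.3 and 27.2 CPM (log2 fold change 2.57 ± 0.27, adjusted p = 0.0125) and Gadd45g from 18.4 and 18.6 to 54.1 and 47.3 CPM (log2 fold change 1.45 ± 0.18, adjusted p = 0.0185). Gadd45g was not called without cisplatin replicate 1 (adjusted p = 0.151). Among 15 tested genes of the BCL2 family, which sets the threshold of mitochondrial cell death, Pmaip1 and the survival gene Mcl1 rose and the survival gene Bcl2 fell. These are 13.3% and 6.67% of the list, against 2.4% and 2.65% of all genes tested. Bcl2 spans 176 kb, and 12.2% of all tested genes of 100 to 200 kb fell. Mcl1 went from 156 and 179 to 656 and 663 CPM (log2 fold change 1.98 ± 0.17, adjusted p = 0.00694), and Bcl2 from 20.2 and 26.1 to 8.82 and 8.26 CPM (log2 fold change -1.44 ± 0.23, adjusted p = 0.035). The fall of Bcl2 did not pass the test without either cisplatin library (adjusted p = 0.181 and 0.11). Of the 5 polo-like kinases, Plk2 and Plk3 rose, and the mitotic Plk1 was below 1 CPM in all libraries (log2 fold change -0.05 ± 0.56, adjusted p = 0.998).

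Ligands and receptors that signal between injured cells were another group of rises. Of 17 tested growth factor ligands and related genes, 7 rose (41.2%, against 2.4% of all genes tested), with a median log2 fold change of 0.92. Lif, a cytokine of the interleukin 6 family, went from 0.487 and 0.815 to 5.37 and 4.55 CPM (log2 fold change 2.87 ± 0.41, adjusted p = 0.0218), and Plaur, the urokinase receptor, from 5.94 and 4.11 to 41.3 and 33.3 CPM (log2 fold change 2.91 ± 0.27, adjusted p = 0.00804). Vgf, which encodes a secreted neuroendocrine protein, had no read in either control library and 20 and 46 reads in the cisplatin libraries, a mean of 1.09 CPM. Taking 3 reads in each control library as the floor, this was at least 10.8-fold higher. With Vgf set to this bound the median of the list was the same. Areg, an EGF receptor ligand, was at 0.0974 and 0.148 CPM in control and 0.639 and 0.784 CPM in cisplatin kidney and did not pass the test (log2 fold change 2.45 ± 0.65, adjusted p = 0.106). Without cisplatin replicate 1, 4 of the 7 passed, with Lif (adjusted p = 0.107) and Vgf (adjusted p = 0.0913) among those lost.

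Stress programmes of the cytosol and the endoplasmic reticulum rose in part. Of 23 genes of the integrated stress response and unfolded protein response, 5 rose (21.7%, against 2.4% of all genes tested). The median log2 fold change was 0.86. Ddit3, which encodes the pro-death factor CHOP, went from 12.4 and 9.95 to 54.1 and 53.8 CPM (log2 fold change 2.28 ± 0.20, adjusted p = 0.007). Ppp1r15a, whose product restores translation, went from 11.8 and 20.1 to 85.3 and 91.1 CPM (log2 fold change 2.46 ± 0.28, adjusted p = 0.0141), and the chaperone partner Dnajb9 from 84.8 and 78.4 to 506 and 449.8 CPM (log2 fold change 2.55 ± 0.17, adjusted p = 0.00349). Atf4, the central factor of the integrated stress response, changed by 1.73 ± 0.21 (adjusted p = 0.0162), and Cebpb by 2.36 ± 0.25 (adjusted p = 0.0127). Hspa5, the main chaperone of the endoplasmic reticulum, was at 827 and 1025 CPM in control and 1192 and 1403 CPM in cisplatin kidney and was not called (log2 fold change 0.49 ± 0.19, adjusted p = 0.507). Atf4 and Cebpb did not pass without cisplatin replicate 1 (adjusted p = 0.0904 and 0.0612).

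Of 21 heat shock chaperones, 7 rose (33.3%, against 2.4% of all genes tested) and none fell (median 0.64). Hsp90aa1, the inducible HSP90, went from 429.8 and 435 to 1476 and 1351 CPM (log2 fold change 1.71 ± 0.16, adjusted p = 0.00978), and the small chaperone Hspb1 from 17.9 and 22.9 to 107 and 97.7 CPM (log2 fold change 2.32 ± 0.20, adjusted p = 0.0069). Hspa1a and Hspa1b, the inducible HSP70 genes, changed by 2.42 ± 0.19 (adjusted p = 0.0054) and 2.10 ± 0.23 (adjusted p = 0.0139), but they are near-identical copies and how reads were divided between them is uncertain. Dnajb1 and Bag3, which assist HSP70, changed by 1.37 ± 0.16 (adjusted p = 0.0173) and 1.77 ± 0.24 (adjusted p = 0.0219). Without cisplatin replicate 1, 3 of the 7 passed, and Hsp90aa1, Dnajb1 and Bag3 did not (adjusted p = 0.0835, 0.128 and 0.0571).

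The oxidative stress response was uneven. Of 23 metallothionein genes and targets of NRF2, the factor that senses electrophiles, 4 rose (17.4%, against 2.4% of all genes tested). The median log2 fold change was 0.53. Srxn1, which repairs oxidised peroxiredoxins, went from 78.98 and 112 to 616 and 548 CPM (log2 fold change 2.61 ± 0.23, adjusted p = 0.00694), and Osgin1 from 53.2 and 91.7 to 466 and 635 CPM (log2 fold change 2.92 ± 0.32, adjusted p = 0.0129). Txnrd1, thioredoxin reductase, changed by 1.42 ± 0.18 (adjusted p = 0.0208), and Nfe2l2, which encodes NRF2 itself, by 1.06 ± 0.17 (adjusted p = 0.0424). Hmox1, the haem-degrading enzyme, was at 23.04 and 127 CPM in control and 1508 and 572 CPM in cisplatin kidney. The groups did not overlap, but the libraries within each group differed widely, with 6.03 and 2.17 in the pairs, and the gene did not pass the test (log2 fold change 3.78 ± 0.87, adjusted p = 0.0689). Nqo1 (log2 fold change 0.45 ± 0.20, adjusted p = 0.596) and the metal-binding Mt1 (log2 fold change 0.99 ± 0.25, adjusted p = 0.138) were also not called. Txnrd1 was not called without cisplatin replicate 1 (adjusted p = 0.174), and Nfe2l2 without either cisplatin library (adjusted p = 0.237 and 0.199).

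Markers of tubule injury were mixed. Of 21 tested, 6 rose (28.6%, against 2.4% of all genes tested). Of the 21, 19 had a log2 fold change above 0 (median 1.00), against 7697 of all 15471 genes tested. Beside Krt20 and Tnfrsf12a, the epithelial keratins Krt8 and Krt18 went from 90.5 and 120.3 to 271 and 296 CPM (log2 fold change 1.43 ± 0.20, adjusted p = 0.0243) and from 28.5 and 39.2 to 90.4 and 116 CPM (log2 fold change 1.61 ± 0.23, adjusted p = 0.0246), and Sox9 and Sox4, transcription factors of the repairing tubule, from 1.27 and 2.04 to 6.01 and 9.90 CPM (log2 fold change 2.25 ± 0.40, adjusted p = 0.0411) and from 15.1 and 11.9 to 37.4 and 35.2 CPM (log2 fold change 1.43 ± 0.21, adjusted p = 0.0267). None of these 4 passed without cisplatin replicate 1 (adjusted p = 0.118, 0.068, 0.0771 and 0.173) or without cisplatin replicate 2 (adjusted p = 0.0695, 0.055, 0.123 and 0.053). The urinary injury markers in common use were not called. Havcr1, which encodes KIM-1, was at 1.02 and 1.94 CPM in control and 5.43 and 5.71 CPM in cisplatin kidney (log2 fold change 1.87 ± 0.40, adjusted p = 0.0652). Lcn2, which encodes NGAL, was at 4.82 and 3.93 CPM in control and 8.05 and 7.57 CPM in cisplatin kidney (log2 fold change 0.84 ± 0.27, adjusted p = 0.244), and Clu, clusterin, at 447 and 832 CPM in control and 522 and 762 CPM in cisplatin kidney (log2 fold change 0.01 ± 0.33, adjusted p = 0.999). For Havcr1 and Lcn2 the cisplatin libraries lay above the controls, and for Clu the groups overlapped.

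Ribosome biogenesis, the making of new ribosomes in the nucleolus, was among the lists with the most rises. Of 30 genes, 9 rose (30%, against 2.4% of all genes tested) and none fell (median log2 fold change 0.71). The snoRNP proteins Nop56 and Nop58 went from 26.9 and 19.1 to 152 and 105 CPM (log2 fold change 2.48 ± 0.27, adjusted p = 0.0131) and from 38.4 and 27.2 to 115 and 96.4 CPM (log2 fold change 1.69 ± 0.23, adjusted p = 0.0209), and the nucleolar GTPase Gnl3 from 37.8 and 23.2 to 232 and 130.0 CPM (log2 fold change 2.57 ± 0.36, adjusted p = 0.021). In Gnl3 replicate 1 was the higher library of each group. The assembly factors Ppan and Rrs1 changed by 2.07 ± 0.22 (adjusted p = 0.0125) and 1.49 ± 0.22 (adjusted p = 0.0277), and Nolc1 by 1.42 ± 0.21 (adjusted p = 0.028). The abundant nucleolar proteins Ncl (log2 fold change 0.86 ± 0.16, adjusted p = 0.0732), Npm1 (log2 fold change 0.74 ± 0.22, adjusted p = 0.237) and Fbl (log2 fold change 0.24 ± 0.22, adjusted p = 0.901) were not called. Without cisplatin replicate 1, 1 of the 9 genes, Nop56, passed the test, whereas 7 passed without cisplatin replicate 2. Of 22 splicing factors and RNA-binding proteins, the cold-inducible Cirbp alone was called, and it rose (log2 fold change 1.78 ± 0.22, adjusted p = 0.0176). That is 4.55% of the list, near the 5.05% called among all genes tested. Cirbp was not called without cisplatin replicate 1. The median of the list was 0.99, and 19 of the 22 had a log2 fold change above 0, against 7697 of all 15471 genes tested. The number of members called depended on which libraries were in the fit. Srsf1 (log2 fold change -0.05 ± 0.37, adjusted p = 0.996), Srsf2 (log2 fold change 1.28 ± 0.49, adjusted p = 0.266) and Hnrnpu (log2 fold change 0.83 ± 0.22, adjusted p = 0.174) were not called. For Srsf1 and Srsf2 replicate 1 exceeded replicate 2 in both groups.

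Genes of the circadian clock, which runs in kidney cells as in most tissues, moved in both directions. Of 23 tested, 5 rose (21.7%) and 2 fell (8.7%), against 2.4% and 2.65% of all genes tested. Per1, a light- and hormone-responsive repressor of the clock, was at 11.5 and 30.8 CPM in control and 109 and 109 CPM in cisplatin kidney (log2 fold change 2.35 ± 0.44, adjusted p = 0.0436), with 3.23 and 1.82 in the pairs. Nfil3, which represses D-box genes, went from 15.6 and 20.5 to 82.6 and 80.97 CPM (log2 fold change 2.17 ± 0.20, adjusted p = 0.00834), and Noct, a rhythmic phosphatase of nicotinamide cofactors, from 13.9 and 20.6 to 77.9 and 72.2 CPM (log2 fold change 2.11 ± 0.23, adjusted p = 0.0139). Dbp, an activator that acts at the same D-box sites as Nfil3, fell from 19.2 and 26.7 to 6.58 and 8.28 CPM (log2 fold change -1.62 ± 0.26, adjusted p = 0.0348). The core activator Arntl (log2 fold change -0.65 ± 0.22, adjusted p = 0.314) and the repressor Nr1d1 (log2 fold change 0.36 ± 0.44, adjusted p = 0.874) were not called, and the libraries of Nr1d1 overlapped between the groups. The other rises were Bhlhe41 (log2 fold change 1.83 ± 0.24, adjusted p = 0.0191) and Crem (log2 fold change 1.53 ± 0.21, adjusted p = 0.0237), and the other fall was Hlf (log2 fold change -1.39 ± 0.24, adjusted p = 0.0453), named after its value was seen. Per1 and Dbp did not pass without cisplatin replicate 1 (adjusted p = 0.0975 and 0.199), when 2 of the 5 rises and neither fall were called, and Bhlhe41 and Hlf did not pass without cisplatin replicate 2.

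Of 17 genes induced by glucocorticoids, the hormones of the stress axis, all had a log2 fold change above 0 (median 0.99). Past the test, 6 rose (35.3%, against 2.4% of all genes tested). Besides Per1 and Dusp1 these were Pdk4, which turns off glucose oxidation (log2 fold change 1.96 ± 0.26, adjusted p = 0.0189), the kinase of sodium transport Sgk1 (log2 fold change 1.5003 ± 0.21, adjusted p = 0.0241), the mTOR inhibitor Ddit4 (log2 fold change 1.43 ± 0.19, adjusted p = 0.0212) and the NF-kB inhibitor Nfkbia (log2 fold change 1.29 ± 0.19, adjusted p = 0.0281). The specific markers Fkbp5 (log2 fold change 0.41 ± 0.38, adjusted p = 0.807) and Tsc22d3 (log2 fold change 1.02 ± 0.28, adjusted p = 0.161) were not called. Fkbp5 was at 56.8 and 132 CPM in control and 140.5 and 111 CPM in cisplatin kidney, with overlapping groups and 1.31 and -0.25 in the pairs. Without cisplatin replicate 1, 2 of the 6 were called, and without cisplatin replicate 2, 3 were, with Sgk1, Ddit4 and Nfkbia lost in both fits. Several of these 6 genes also answer to other stress signals.

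Lists of inflammatory, growth and matrix genes differed in how many members were called, against 2.4% of all genes tested that rose and 2.65% that fell. Of 20 NF-kB targets and chemokines, 3 rose (15%, median log2 fold change 1.02): Nfkbia, the adhesion molecule Icam1 (log2 fold change 1.26 ± 0.18, adjusted p = 0.0289) and the neutrophil attractant Cxcl1, which went from 0.292 and 0.148 to 3.32 and 2.22 CPM (log2 fold change 3.73 ± 0.58, adjusted p = 0.0251). None of the 3 was called without cisplatin replicate 1, and Cxcl1 alone of them without cisplatin replicate 2. The NF-kB inhibitor Tnfaip3 was at 11.7 and 9.85 CPM in control and 11.4 and 9.51 CPM in cisplatin kidney, with overlapping groups (log2 fold change -0.05 ± 0.24, adjusted p = 0.995). No interferon-stimulated gene of 21 was called (median 0.28), Isg15 among them (log2 fold change 0.75 ± 0.28, adjusted p = 0.33). Of 18 Id and Smad feedback genes, which report BMP and TGF-beta signals, Id1 (log2 fold change 1.52 ± 0.19, adjusted p = 0.0199), Skil (log2 fold change 1.56 ± 0.27, adjusted p = 0.0408) and Tgif1 (log2 fold change 2.02 ± 0.22, adjusted p = 0.0141) rose (16.7%), and Id1 and Skil were lost without cisplatin replicate 1. Of 16 YAP targets, Ccn1 (log2 fold change 2.56 ± 0.22, adjusted p = 0.00694) and the coagulation initiator F3 (log2 fold change 1.38 ± 0.22, adjusted p = 0.035) rose, and Wwc1, an upstream inhibitor of YAP that YAP also induces, fell (log2 fold change -1.17 ± 0.17, adjusted p = 0.0301), so that 18.8% of the list was called. F3 and Wwc1 were not called without either cisplatin library. Wwc1 spans 142 kb, and 12.2% of all tested genes of 100 to 200 kb fell. None of 22 collagen and matrix genes was called (median -0.30). Among 15 Kruppel-like factors, Klf6 (log2 fold change 3.13 ± 0.17, adjusted p = 0.00231), Klf4 (log2 fold change 1.80 ± 0.19, adjusted p = 0.0137) and Klf10 (log2 fold change 1.66 ± 0.21, adjusted p = 0.0186) rose (20%). Klf12 (log2 fold change -1.99 ± 0.30, adjusted p = 0.0253) and Klf15 (log2 fold change -1.74 ± 0.24, adjusted p = 0.0232) fell (13.3%). Klf4 and both falls were lost without cisplatin replicate 1, and Klf15 also without cisplatin replicate 2. Klf12 spans 414 kb, and 23.2% of all tested genes of 200 to 500 kb fell.

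In lists of repair and proliferation genes the share called was no higher than the 5.05% of all genes tested. Of 35 nucleotide excision repair genes, the pathway that removes cisplatin adducts, 1 rose (2.86%), the polymerase clamp Pcna, which went from 44.04 and 35.2 to 95.1 and 80.4 CPM (log2 fold change 1.15 ± 0.19, adjusted p = 0.046) and was not called without either cisplatin library (adjusted p = 0.32 and 0.0831). The median of the list was -0.01. Xpa, which checks the damage, was at 12.3 and 9.84 CPM in control and 13.4 and 13.98 CPM in cisplatin kidney (log2 fold change 0.31 ± 0.23, adjusted p = 0.831). None of 33 crosslink and recombination repair genes was called (median -0.32), and Fancd2 and Brca1 lay under 2 CPM in all libraries, where the depth limits what could be seen. Of 29 genes of mitosis and replication, Pcna alone was called (3.45%). Mki67, a marker of cycling cells, was at 3.61 and 5.09 CPM in control and 3.96 and 2.12 CPM in cisplatin kidney (log2 fold change -0.55 ± 0.42, adjusted p = 0.707).

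**Figure D3:**
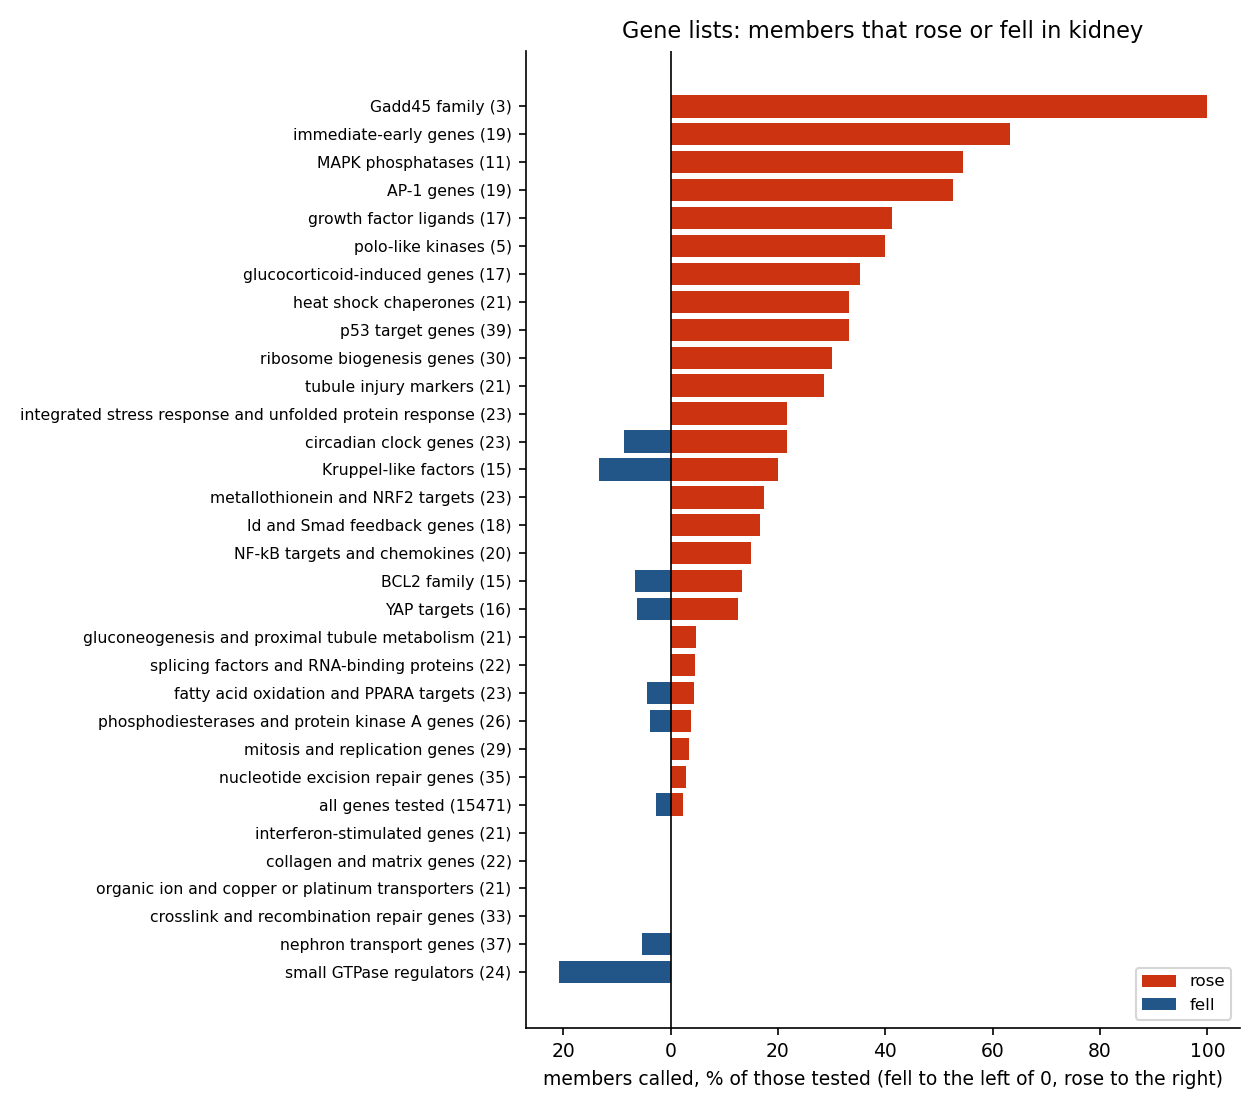
Share of the tested members of each gene list that rose (red, right of 0) or fell (blue, left of 0) in kidney, in percent, with the number of members tested in brackets and all 15471 tested genes as a reference row. Rises stand far to the right of that row (2.4%) in the Gadd45, immediate-early, MAPK phosphatase and AP-1 lists, and the small GTPase regulators stand farthest to the left.

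Of 37 tested nephron transport genes none rose and 2 fell. These 2 are 5.41% of the list, against 5.05% of all genes tested that were called and 2.65% that fell. The median log2 fold change was -0.35, and 6 of the 37 were above 0. Kcnj1, the potassium channel of the thick ascending limb, went from 470.4 and 559.8 to 189 and 248 CPM (log2 fold change -1.24 ± 0.21, adjusted p = 0.0426), and Bsnd, the chloride channel subunit barttin, from 111 and 147 to 49.97 and 60.5 CPM (log2 fold change -1.22 ± 0.21, adjusted p = 0.046). Neither passed the test without cisplatin replicate 1 (adjusted p = 0.326 and 0.302) or without cisplatin replicate 2 (adjusted p = 0.0733 and 0.0904). The salt transporters Slc12a1 (log2 fold change -0.49 ± 0.16, adjusted p = 0.462) and Slc12a3 (log2 fold change -0.56 ± 0.17, adjusted p = 0.344) and the phosphate transporter Slc34a1 (log2 fold change -0.20 ± 0.24, adjusted p = 0.935) were not called. None of 21 transporters of organic ions, copper or platinum was called (median -0.09). Slc22a2, which carries cisplatin into the proximal tubule, was at 179 and 328 CPM in control and 182 and 227 CPM in cisplatin kidney (log2 fold change -0.31 ± 0.30, adjusted p = 0.849), with overlapping groups. Slc47a1, which exports it to the urine, was at 452 and 439 CPM in control and 413 and 426 CPM in cisplatin kidney (log2 fold change -0.09 ± 0.15, adjusted p = 0.994), and the copper transporter Slc31a1 had a log2 fold change of -0.17 ± 0.16 (adjusted p = 0.967).

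In energy metabolism, 23 genes of fatty acid oxidation and targets of PPARA held 1 rise, Pdk4, and 1 fall, Ppara itself. That is 8.7% of the list called, against 5.05% of all genes tested. Ppara, the receptor that drives fatty acid use, went from 46.3 and 49.6 to 22.9 and 20.6 CPM (log2 fold change -1.15 ± 0.18, adjusted p = 0.0376). Ppara did not pass without either cisplatin library (adjusted p = 0.204 and 0.186). Cpt1a (log2 fold change -0.68 ± 0.25, adjusted p = 0.346) was not called. Of 21 genes of gluconeogenesis and proximal tubule metabolism, the lactate transporter Slc16a1 rose (log2 fold change 1.08 ± 0.18, adjusted p = 0.0492). This 1 call is 4.76% of the list, near the 5.05% called among all genes tested. Slc16a1 too was not called without either cisplatin library or with DESeq2 (adjusted p = 0.0552). Pck1, the gate of gluconeogenesis, was at 3533 and 4456 CPM in control and 2074 and 3490.1 CPM in cisplatin kidney (log2 fold change -0.52 ± 0.28, adjusted p = 0.579).

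The genes that fell shared a feature that the test did not use, their length. The median distance from gene start to gene end was 162 kb for the genes that fell, 9.73 kb for those that rose and 22.5 kb for all genes tested. The median log2 fold change went from 0.24 in genes under 10 kb (4234 genes) to 0.13 at 10 to 30 kb, -0.17 at 30 to 100 kb, -0.65 at 100 to 200 kb and -0.92 at 200 to 500 kb, and was -0.81 in the 147 genes of 500 kb and over. Each class had a median of the same sign in both replicate pairs, for example -0.93 in pair 1 and -0.89 in pair 2 at 200 to 500 kb. Of 2006 genes of 100 kb and over, 311 fell (15.5%) and 2 rose, and 87.9% had a log2 fold change below 0. Of 4234 genes under 10 kb, 191 rose (4.51%) and 14 fell (0.331%). Of the 372 genes that rose, 340 were under 30 kb, a count of 88 without cisplatin replicate 1, 793 without control replicate 1 and 608 without control replicate 2. The count of long genes that fell was 24 without cisplatin replicate 1, 153 without cisplatin replicate 2 and 669 without control replicate 1, while the median of genes of 100 kb and over stayed between -0.82 and -0.68 in these fits.

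Exon length followed the fold change less closely than gene length. Among the 2006 genes with the longest exons, the same number as in the class of 100 kb and over, 154 fell and 19 rose, with a median log2 fold change of -0.38 against -0.72 for the genes of 100 kb and over. Long genes had a smaller part of their length in exons, with a median of 54.6% under 10 kb and 3.03% at 200 to 500 kb. The part that exon content or expression level had in the relation to gene length was not tested.

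**Figure D4:**
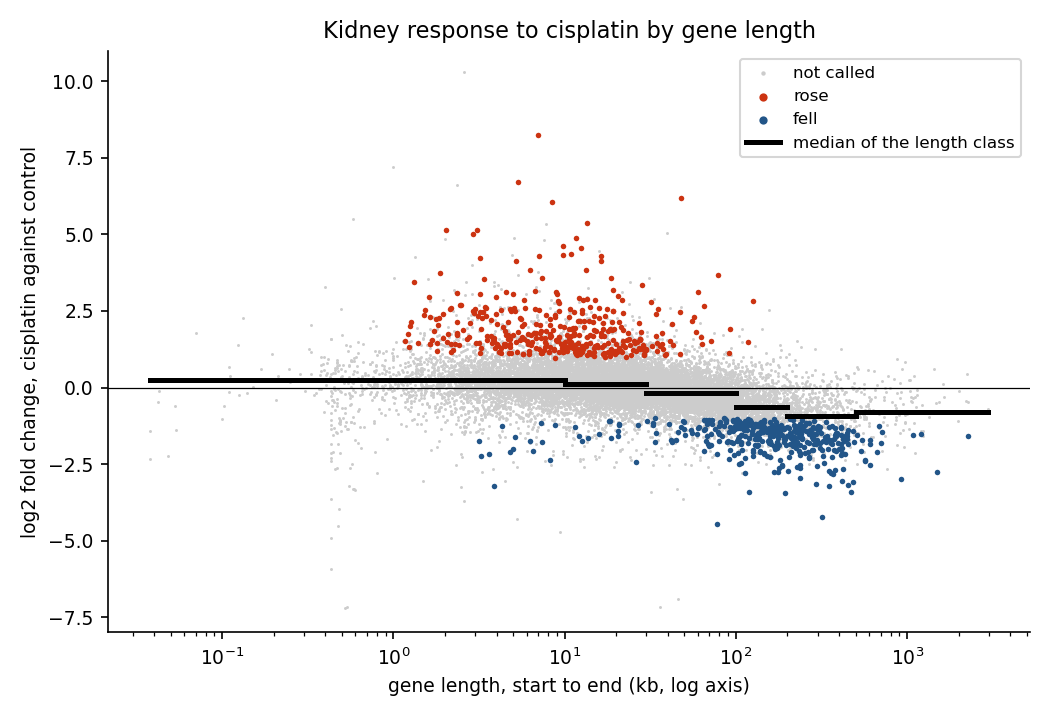
Log2 fold change of each tested kidney gene with a position (vertical axis) against its length from start to end (horizontal axis, kb, log axis), with genes that rose in red, genes that fell in blue and black bars for the median of each length class. The black bars step down from 0.24 under 10 kb to -0.92 at 200 to 500 kb, and the blue points gather beyond 100 kb. The highest red point is Vgf, which had no reads in control and whose fitted value has no upper bound in these data.

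Among genes that fell and had a mean of at least 5 CPM in the higher group, the 15 largest falls were all of genes over 100 kb. Below that level, the short gene Mup3 also had a large fall (log2 fold change -3.21). The largest of the 15 was Tmem117 (ENSMUSG00000063296; chr15:94629232-95096098, plus strand), which encodes a membrane protein and spans 467 kb. It was at 20.9 and 19.9 CPM in control and 1.79 and 2.04 CPM in cisplatin kidney, a change of -3.40 ± 0.25 (adjusted p = 0.00387), with -3.51 in pair 1 and -3.25 in pair 2. Ror1 and Ror2, receptors of Wnt5a, fell from 9.45 and 10.2 to 0.639 and 1.33 CPM (log2 fold change -3.23 ± 0.40, adjusted p = 0.016) and from 10.6 and 18.6 to 1.73 and 2.47 CPM (log2 fold change -2.77 ± 0.38, adjusted p = 0.0199). Thrb, a thyroid hormone receptor, fell from 52.9 and 49.7 to 7.92 and 7.84 CPM (log2 fold change -2.70 ± 0.19, adjusted p = 0.00349), and Atxn1, a transcriptional repressor, from 36.4 and 30.03 to 3.64 and 4.24 CPM (log2 fold change -3.06 ± 0.23, adjusted p = 0.00419). The libraries of each group lay close together in Thrb, where the pairs changed by -2.73 and -2.65.

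Klhl3, the substrate adaptor of the ligase that degrades WNK kinases and so restrains sodium reabsorption in the distal nephron, fell from 98.2 and 146 to 15.8 and 19.7 CPM (log2 fold change -2.78 ± 0.26, adjusted p = 0.00804). Pde4d, a phosphodiesterase of cyclic AMP and at 1504 kb the longest of the 15, fell from 33.6 and 35.7 to 4.73 and 5.51 CPM (log2 fold change -2.75 ± 0.21, adjusted p = 0.00432). Xylt1, which starts proteoglycan chains, fell from 22.8 and 19.2 to 1.53 and 3.02 CPM (log2 fold change -3.15 ± 0.36, adjusted p = 0.0141), and Slc22a23, an orphan member of the organic ion transporter family, from 149 and 152 to 23.9 and 20.4 CPM (log2 fold change -2.77 ± 0.18, adjusted p = 0.00338). The others were Nckap5 (log2 fold change -2.97 ± 0.39, adjusted p = 0.0178), Ldlrad3 (log2 fold change -2.95 ± 0.23, adjusted p = 0.00419), the netrin receptor Unc5c (log2 fold change -2.82 ± 0.30, adjusted p = 0.0117), the kinase scaffold Ksr2 (log2 fold change -2.79 ± 0.34, adjusted p = 0.016), the zinc finger factor Glis1 (log2 fold change -2.73 ± 0.36, adjusted p = 0.0178) and the phosphatase subunit Ppp2r2b (log2 fold change -2.67 ± 0.37, adjusted p = 0.02). Glis1, Ror2, Ksr2, Unc5c and Nckap5 did not pass without cisplatin replicate 1 (adjusted p = 0.0713, 0.0865, 0.0571, 0.0543 and 0.0737).

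The small GTPase regulators, exchange factors and activating proteins that steer the cytoskeleton and membrane traffic, are mostly long genes, and 5 of 24 fell (20.8%, against 2.65% of all genes tested), none rose, and 1 of 24 had a log2 fold change above 0 (median -0.87). The 5 that fell span 224 to 446 kb, and 19 of the 24 are of 200 kb and over. Of all 755 tested genes of that length 20.9% fell, so that the share in the list is near that of genes of its length. Tbc1d5 changed by -1.59 ± 0.26 (adjusted p = 0.0375), Arhgap26 by -1.48 ± 0.19 (adjusted p = 0.0208) and Rapgef2 by -1.30 ± 0.21 (adjusted p = 0.0362). Dock9 fell from 148 and 141 to 68.1 and 62.9 CPM (log2 fold change -1.14 ± 0.16, adjusted p = 0.0278), and Arhgap10 from 47.99 and 59.1 to 21.9 and 25.5 CPM (log2 fold change -1.17 ± 0.20, adjusted p = 0.0453). None of the 5 was called without cisplatin replicate 1, and Tbc1d5 alone of them without cisplatin replicate 2. Of 26 phosphodiesterase and protein kinase A genes, Pde4d fell and Crem, a cyclic AMP responsive repressor, rose (median -0.57). That is 7.69% of the list called, against 5.05% of all genes tested. Of the 26, 11 are of 200 kb and over, and the median of all tested genes of that length was -0.89. Crem was lost without cisplatin replicate 1. Pde4b was at 25.4 and 22.5 CPM in control and 33.5 and 39.7 CPM in cisplatin kidney (log2 fold change 0.61 ± 0.19, adjusted p = 0.307).

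A few genes went against the relation with length. The 2 genes of 100 kb and over that rose were Nrxn2, which encodes a neuronal adhesion protein, and Sgk1. Nrxn2 was at 2.92 and 4.63 CPM in control and 41.5 and 13.6 CPM in cisplatin kidney, with 3.803 in pair 1 and 1.54 in pair 2 and an adjusted p of 0.0492, near the limit, and Sgk1 has short isoforms that start inside the long gene model. Of the 14 genes under 10 kb that fell, Mup3, Ahsg, Vtn and Igfbp1 encode plasma proteins made chiefly by hepatocytes, and Ighg2c and Ighg2b encode immunoglobulin heavy chains. Ahsg was at 10.04 and 11.5 CPM in control and 2.81 and 1.49 CPM in cisplatin kidney. The rest included Dbp, Bsnd, the Wnt antagonists Notum and Sostdc1, and the kidney developmental factor Lhx1. These genes were looked up after their values had been seen.

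Markers of cell types were used to check the tissue. Of the 12 proximal tubule markers none was called, and their summed level was 26625 and 27440 CPM in control and 27407 and 25714 CPM in cisplatin kidney. The 5 loop of Henle markers summed to 7744 and 8795 CPM against 6045 and 7068 CPM, with Kcnj1 called, and the 4 distal tubule markers to 2215 and 2376 CPM against 1327 and 1734 CPM, with none called. No marker of collecting duct, podocytes, endothelium, macrophages and neutrophils, lymphocytes, red cells, adipocytes, fibroblasts or pancreas was called, and none of their lists was at 0. Skeletal muscle markers summed to at most 0.471 CPM in any library. The 4 liver markers summed to 165 and 259 CPM in control and 103 and 108 CPM in cisplatin, with none called, which moved in the same direction as the plasma protein genes, and their part in those falls was not tested. Markers of the adrenal gland, which lies on the kidney, summed to 5.07 and 4.19 CPM against 10.99 and 7.59 CPM.

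The genes that rose or fell were also described in the study's repair and damage maps of cisplatin-treated kidney, which the RNA comparison did not use. XR-seq reads the short fragments cut out by nucleotide excision repair, and Damage-seq reads adducts that were still in the DNA. Both were counted on the transcribed strand (TS), which the polymerase reads, and on the nontranscribed strand (NTS). XR-seq libraries held 18406613 and 27921971 reads on genes and Damage-seq libraries 6441367 and 5731390, and genes with at least 20 reads were kept. The median TS to NTS ratio of XR-seq was 8.22 and 8.46 (replicate 1 and 2) over 366 genes that rose, 11.8 and 8.76 over 402 that fell, and 8.68 and 7.76 over 13682 that were not called. Genes that fell had the highest median in both libraries, while genes that rose lay below those not called in replicate 1 and above them in replicate 2. In XR-seq replicate 1 some genes had TS reads but 0 NTS reads, such as Fos (253 TS) and Clu (894 TS). Replicate 2 had 35 and 64 NTS reads for these. Ratios of such genes rest on the pseudocount of 1 read. With a pseudocount of 0.5 the replicate 1 medians were 8.32 (rose), 11.8 (fell) and 8.75 (not called). The median ratio of Damage-seq was 0.523 and 0.619 over 332 genes that rose, 0.805 and 0.884 over 407 that fell, and 0.730 and 0.821 over 13543 not called. Fewer adducts were thus read on the TS than on the NTS in each class, and the ratio was lowest in genes that rose and highest in genes that fell in both libraries over all lengths. These are medians over genes, which share libraries, and no test was made. The ratios were not corrected for the number of GG sites on either strand.

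Because the genes that rose were short and those that fell were long, the medians were also taken within length classes, for classes with at least 20 called genes of a direction. Genes that rose had a lower median log2 ratio of Damage-seq than genes not called in each of their 3 classes and in both libraries. It was -0.81 and -0.65 against -0.48 and -0.32 under 10 kb, -1.09 and -0.73 against -0.58 and -0.37 at 10 to 30 kb, and -0.70 and -0.59 against -0.51 and -0.31 at 30 to 100 kb. Genes that fell did not keep 1 order across classes. At 30 to 100 kb (71 genes that fell) their Damage-seq median was -0.44 and -0.27 against -0.51 and -0.31, above the genes not called, as over all lengths. At 100 to 200 kb (153 genes) it was -0.39 and -0.21 against -0.26 and -0.16, and at 200 to 500 kb (141 genes) -0.24 and -0.14 against -0.077 and -0.057, below the genes not called. For XR-seq, genes that rose had the higher median under 10 kb (2.76 and 2.59 against 2.37 and 2.29) and at 10 to 30 kb (3.55 and 3.70 against 3.15 and 3.05), but the lower one at 30 to 100 kb (3.04 and 3.16 over 29 genes against 3.47 and 3.35). Genes that fell had the higher XR-seq median at 100 to 200 kb (3.92 and 3.50 against 3.35 and 3.19) and at 200 to 500 kb (3.35 and 3.06 against 2.83 and 2.74), while at 30 to 100 kb the libraries differed in order (3.68 and 3.10 against 3.47 and 3.35). Differences in level between the classes were not accounted for.

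**Figure D5:**
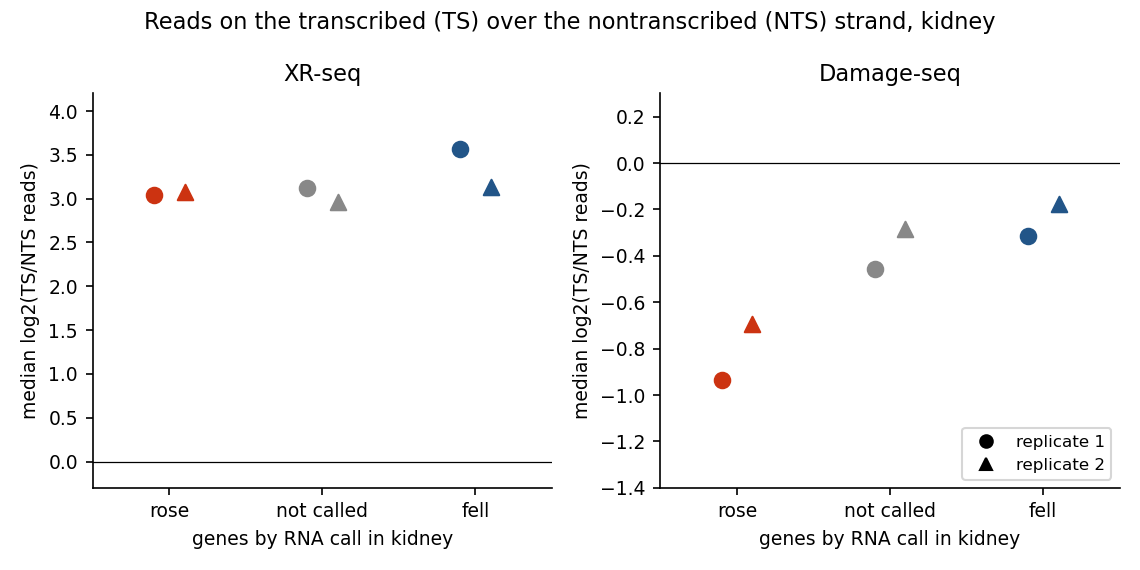
Median log2 ratio of TS to NTS reads in kidney XR-seq (left) and Damage-seq (right) for genes whose RNA rose, was not called or fell; circles are replicate 1, triangles replicate 2. XR-seq medians lie above 0 in all classes, and Damage-seq medians lie below 0, lowest for genes that rose (-0.94 and -0.69).

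The response of kidney was set beside that of liver, for which the study has 2 control and 2 cisplatin RNA-seq libraries of the same strain, sex, dose and times. The question was which kidney changes differed from those of liver, and it was tested as an interaction of organ and treatment against a difference of 0. Of 16075 genes tested, 1 was called (0.00622%), and 912 had an unadjusted p under 0.05. The called gene was Plk3, which rose by 6.72 in kidney and had a log2 fold change of 1.84 in liver. The kidney change exceeded the liver change by 4.75 ± 0.37 (SE, adjusted p = 0.00414, edgeR). Kidney values here are from the fit of kidney libraries alone. Liver values and the difference are from the joint fit of both organs, which has its own scaling. The 2 printed changes therefore do not differ by exactly 4.75. Over all genes tested in kidney the median difference was -0.114. Other fits gave 130 calls with DESeq2, 197 without a filter on low counts and 47 with replicate number as a block in each organ, and 0 without either kidney control library, where Plk3 had adjusted p = 0.0865 and 0.124. A low count of calls in this test is no evidence of equal responses.

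For the remaining named genes the 2 organs are given side by side, each from the fit named above. The log2 fold change of Hbegf was 4.38 in kidney and 0.93 in liver (edgeR, adjusted p = 0.0558 for the difference), that of Fosl1 was 6.05 and 1.31 (adjusted p = 0.121), and that of Atf3 was 6.18 and 2.38 (adjusted p = 0.159). Other genes had liver values near or above those of kidney, such as Tnfrsf12a with 5.14 and 4.06, and Dusp8 with 4.29 and 5.53. Among the falls, Tmem117 had -3.40 and -3.21, and Thrb had -2.70 and -3.70. The 372 genes that rose in kidney had a median of 1.67 in kidney and 0.74 in liver, and the 410 that fell had -1.56 and -1.36. Since these genes were chosen for their change in kidney, the kidney medians are larger in part by that choice.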

How the data were processed

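RNA-seq of 2 cisplatin-treated and 2 control mouse kidneys was analysed, with 4 liver libraries and 2 XR-seq and 2 Damage-seq libraries of kidney for comparison. The authors selected polyadenylated RNA, aligned paired reads to mm10 with STAR, removed reads with mapping quality under 20, unexpected orientation, a pair distance over 500 kb or more than 10 positions, and deposited raw counts per gene from featureCounts. For XR-seq and Damage-seq the authors used cutadapt, BWA and Picard and deposited counts per strand. Versions and strand settings of these tools are not given in the sources used here.

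Here, counts were scaled by TMM and tested in edgeR 4.0.16 (R 4.3.3) with filterByExpr, a quasi-likelihood fit and glmTreat against a log2 fold change of 0.4, called at a Benjamini-Hochberg adjusted p under 0.05. The standard error is the fold change over the root of the F statistic against 0, and pair changes are log2 CPM with a prior count of 2. Alternatives were DESeq2 1.42.0 with all genes, RLE scaling, no filter, a test against 0, a replicate block, thinned counts and each library left out. The fits were also run on simulated counts, drawn independently for each library and without deviations shared by libraries of the same number. How the fits behave with such shared deviations was not tested.

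Positions and lengths came from GENCODE M21 on GRCm38 (25041 of 25059 genes). The 31 lists hold 653 genes, of which 4 (Csrnp1, Per3, Srsf4 and Irf9) are not analysed here. Genes named were the 15 largest rises and 15 largest falls with at least 5 CPM in the higher group and, from each list, its first 3 members and up to 6 called ones. For 2 genes that this rule takes, the result is not reported here. Exons of 53 of the other 171 overlap another gene. The genes, lists and tests were chosen with earlier results of these data known. With 2 libraries per group, p-values measure the spread between these libraries, which may be partly technical, and intervals cover no other source of error.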

Additional observations from a re-analysis of the deposited data

Results flagged for a closer look

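Plk3 was singled out because its response differed between the organs in the test of the interaction itself. The log2 fold change was 6.72 in kidney (fit of kidney alone), with all cisplatin libraries of kidney above both controls, and 1.84 in liver (joint fit). In the joint fit the difference of the log2 fold changes, kidney minus liver, was 4.75 ± 0.37 (SE, edgeR quasi-likelihood test, adjusted p = 0.00414). It lay between 4.64 and 4.99 in the 12 other fits and had an adjusted p above 0.05 in 2 of them, those without a kidney control library. No group had the 4 samples needed to look for single samples that stand apart.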

How the results depend on the processing

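None of the 782 called genes had a log2 fold change of the other sign in any of the 11 other fits, although most were not called without cisplatin replicate 1. The groups of all 782 did not overlap, so refits of the same counts could hardly give the other sign, and this is no further support. The number of calls, 782 (372 up and 410 down), was 834 with DESeq2 and 762 with RLE scaling, but 1896 without a filter on low counts (806 up, 1090 down), 1711 against a log2 fold change of 0 (770 and 941), 1475 in DESeq2 with a replicate block (703 and 772) and 3182 in edgeR with a replicate block (1467 and 1715). The deviations of libraries with the same number correlated at 0.476 over 15471 genes. Libraries with the same number were also close in depth. Control and cisplatin held 19319092 and 15619474 reads on genes in replicate 1, and 55043177 and 53316911 in replicate 2. The paper describes a correction for known batches, but no label names the batch of a library. It reports 1475 changed genes in kidney with DESeq2 at the same thresholds, the same number as DESeq2 with a replicate block gave here. Whether the paper's test held such a block is not stated there. Whether the pairs are batches was not tested, and the main fit had no replicate block. Leaving out 1 library gave 123 to 2005 calls, 95 to 914 up and 28 to 1091 down, 24 to 669 falls at 100 kb and over (main value 311) and 88 to 793 rises under 30 kb (main value 340). Exon length in place of gene length gave 154 falls. The causes of these shifts were not tested. The interaction gave 1 call, and 130 with DESeq2, 2 with RLE scaling, 197 without a filter, 47 with a replicate block within organ and 0 to 7 without 1 library.

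Of the 114 named genes that were called, 55 were lost without cisplatin replicate 1 and 25 without cisplatin replicate 2. None was lost without either control library. DESeq2 lost Slc16a1, and DESeq2 with a replicate block lost Vgf (adjusted p = 0.414). Named genes that were not called passed in some fits: 19 of 57 in edgeR and 8 of 54 in DESeq2 with a replicate block. Without a filter on low counts 10 of 57 passed, and against a log2 fold change of 0, 9 of 57. In DESeq2 without a block 2 of 54 passed, in thinned counts 1 of 53, and with RLE scaling 0 of 57. Not being called thus depended on the fit. Some genes that were not called changed sign: Clu was -0.019 without a filter and Ddb2 0.012 in thinned counts, and leaving out 1 library gave Fkbp5 -0.084 to 1.15, Nr1d1 -0.15 to 1.06, Irf7 -0.036 to 0.64, Fancd2 -0.30 to 0.47, Clu -0.39 to 0.53, Ddb2 -0.49 to 0.47, Tnfaip3 -0.19 to 0.082, Srsf1 -0.52 to 0.43, Plk1 -0.46 to 0.35, Fbp1 -0.14 to 0.0201, Xpc -0.23 to 0.0013, Slc34a1 -0.48 to 0.13, Prkar2b -1.11 to 0.18, Slc22a2 -0.70 to 0.19 and Col4a2 -0.90 to 0.055 (log2 fold changes). Depth limits genes near or under 1 CPM.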

Other observations

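The short genes that fell held a group of transcripts that the tubule is not known for. The plasma protein genes Vtn (4.87 and 5.37 CPM in control, 0.895 and 1.22 CPM in cisplatin), Igfbp1 (26.4 and 35.3 against 5.05 and 9.20 CPM) and the urinary protein gene Mup3 (2.34 and 4.19 against 0.383 and 0.333 CPM) were lower with cisplatin. The immunoglobulin genes Ighg2c (40.5 and 68.7 against 9.65 and 14.6 CPM) and Ighg2b (25.4 and 51.0 against 8.82 and 10.02 CPM) were lower with cisplatin as well. The summed level of 4 B and T cell markers was 6.53 and 10.9 CPM in control and 4.41 and 5.06 CPM in cisplatin, with none called, and its part in these falls was not tested.

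Other short genes that fell were Tlr12, an innate immune receptor (36.98 and 47.9 against 10.4 and 14.8 CPM), Slitrk6 (16.1 and 10.9 against 3.45 and 3.02 CPM) and BC025446 (64.5 and 51.1 against 17.3 and 17.3 CPM). Of the 782 genes that changed in kidney, 116 were in one of the gene lists and 666 in none, of which 271 rose and 395 fell.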
